A study of Mus musculus with 6 samples.

Results

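A group of 8 transcripts that the lncRNA table lists side by side on chromosome 4, between positions 144938256 and 145007452, carried many fewer reads in macrophages kept in extract of enoxaparin bone cement than in macrophages kept in extract of plain cement. The group was 8 of the 24817 features of the table, and its members were NONMMUT117693.1, NONMMUT117695.1, NONMMUT117696.1, NONMMUT117697.1, NONMMUT117699.1, NONMMUT117700.1, NONMMUT148313.1 and MSTRG.41311.1. The first 7 are NONCODE transcripts, and MSTRG.41311.1 is a transcript assembled by the authors. The members were picked by identifier with the read counts of this very comparison known, so their differences between the groups are a description. The fits over all features include them, but no p-value is given for a member and no statement rests on whether a member passed.

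The 6 libraries hold RNA of RAW264.7, a macrophage cell line of the mouse. All 6 came from cells stimulated for 24 h with lipopolysaccharide (LPS), a bacterial cell wall component, before the medium was replaced by cement extract. The 3 libraries of LPS_ES_PMMA received extract of polymethyl methacrylate (PMMA) cement with enoxaparin sodium, a low-molecular-weight heparin. The 3 libraries of LPS_PMMA had extract of PMMA cement without it according to their titles, although LPS alone is named in their descriptions and in the table's column names. The labels give neither the time in extract nor its dose, and the 6 libraries include none without LPS. Separate cultures are not mentioned for the 3 libraries of a group, so p-values measure the spread between these libraries, which may be technical.

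The listed positions lie between genes of lipid and retinoid metabolism and of tumour necrosis factor (TNF) reception. Vps13d encodes a bridge-like protein that moves lipids between membranes, and Dhrs3 a reductase that turns retinaldehyde into retinol. Tnfrsf1b encodes TNF receptor 2, which binds TNF at the cell surface, recruits TRAF adaptor proteins and activates NF-kB. Macrophages carry this receptor, and inflammatory stimulation is known to raise it and to cause its shedding from the cell. Tnfrsf8 encodes CD30, another receptor of the same family, and its neighbour on the chromosome.

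In the annotation of build mm10 (GENCODE M21), which the submitters' processing notes name, the 8 features stretched from the space beyond Dhrs3 (chromosome 4, 144892827 to 144928209) into Vps13d (144972622 to 145195005, minus strand). NONMMUT117693.1 (144938256 to 144950762), NONMMUT117695.1 (144948267 to 144954109), NONMMUT117696.1 (144952681 to 144955173) and NONMMUT117697.1 (144954162 to 144955914) overlapped no annotated gene there. NONMMUT117699.1 (144956035 to 144959656) held the 3 short exons of Gm38074 (144957155 to 144958848), a gene model that awaits experimental support. NONMMUT117700.1 (144959784 to 144965550) and NONMMUT148313.1 (144960341 to 144963238), which lies wholly inside it, again met no gene. MSTRG.41311.1 (145000708 to 145007452) fell within an intron of Vps13d, with 0 bases in an exon. The 7 NONCODE features are unspliced as listed, each as long as its span, while MSTRG.41311.1 has 5103 nt of exons in a span of 6745.

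Listed positions of assembled transcripts did not line up with that annotation. Of 133 assembled transcripts on chromosome 4, 0 met an annotated transcript at both ends (within 2 bp) at the listed position. Assembled transcripts are classed as antisense, intronic or intergenic. That class may itself exclude such a match, so the 0 alone does not show a shift. Some met at both ends when the annotation was read at a distance, taken as annotated minus listed position. That distance was 81763 bp for 4 and 142803 bp for 5 transcripts listed further towards the chromosome start. It was 272689 bp for 6 assembled transcripts listed from 132075325 to 141341665, among them MSTRG.40591.4 at the end positions of an Eya3 transcript, MSTRG.40718.3 at those of Cd52 and MSTRG.40830.2 at those of Pnrc2. It was -84457 bp for 4 transcripts listed from 147979040 onwards, among them MSTRG.41271.5 at the end positions of a Mfn2 transcript and MSTRG.41630.8 at those of Rer1. The 8 features lie between these stretches, 3.597 Mb after the last transcript at the former distance and 2.972 Mb before the first at the latter. Within 5 Mb on each side, 24 assembled transcripts gave no distance shared by more than 1 of them when protein-coding transcripts were used, so the distance that holds at the locus itself was not measured. The search over the whole chromosome was added after the data had been seen.

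Read at 272689 bp, the 7 NONCODE features overlapped Tnfrsf1b (145213463 to 145246870, minus strand, 10 exons in M21), NONMMUT117693.1 with 9989 of its 12507 bases and the other 6 with all of theirs. MSTRG.41311.1 lay in Tnfrsf8 (145267137 to 145315164, minus strand). NONMMUT117693.1 then held 2881 of the 3818 exonic bases of Tnfrsf1b. NONMMUT117695.1 held 593, NONMMUT117696.1 242, NONMMUT117697.1 129 and NONMMUT117699.1 103 exonic bases, while NONMMUT117700.1 and NONMMUT148313.1 lay within an intron. MSTRG.41311.1 held 240 exonic bases of Tnfrsf8. Read at -84457 bp, the 7 NONCODE features met no gene and MSTRG.41311.1 held 1009 exonic bases of Dhrs3. Another distance, 242808 bp, was the only commonest one among 8 assembled transcripts within 2 Mb on each side, but only 1 met it. With ends within 20 bp counted, it was 1 of 2 tied distances, each met by 2 transcripts. Gene overlaps were not read at 242808 bp, so the genes named here do not cover every distance met near the locus. The distances were measured on assembled transcripts, and whether any of them holds for NONCODE features was not tested. Gene models of GRCm39 were not used here, and the gene that these reads come from cannot be told apart with these files.

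**Figure D1:**
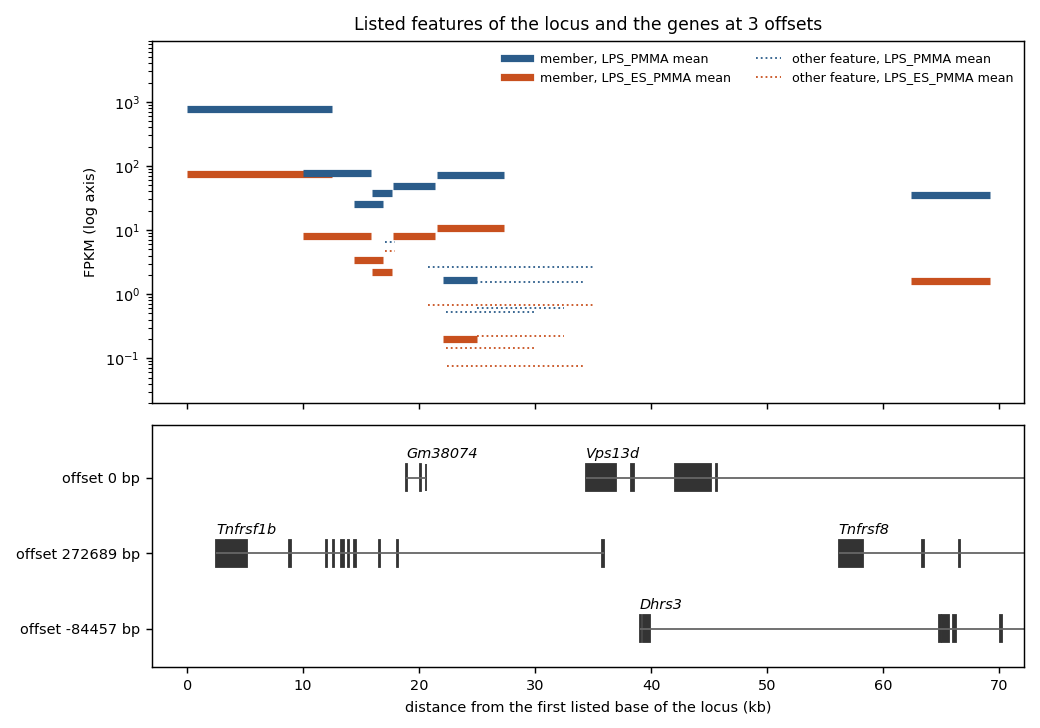
Upper panel: mean FPKM (log axis) of each listed feature over its listed extent, in kb from the first base of NONMMUT117693.1, for the 8 features (thick lines) and the 5 other features within their span (dotted), blue for LPS_PMMA and orange for LPS_ES_PMMA. Lower panel: gene models of GENCODE M21 (boxes are exons) at distances of 0, 272689 and -84457 bp; NONMMUT117693.1, the most abundant feature, lies over the large last exon of Tnfrsf1b at 272689 bp and over no gene at 0.

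The promoters of Tnfrsf1b and Vps13d, which are among the genes at issue, are shown. The 8 features were lower together, and their listed position alone does not say which gene they belong to. Both sequences are from RefSeq (GRCm38.p6, minus strand) and run from 250 bases before to 50 bases after the transcript start. Capitals mark matches, on either strand, to the core of the interferon-stimulated response element (ISRE), the NF-kB consensus, PU.1 (AGGAAGT), AP-1 (TGANTCA) or the TATA box (TATAAA).
Tnfrsf1b promoter, chr4:145246821-145247120: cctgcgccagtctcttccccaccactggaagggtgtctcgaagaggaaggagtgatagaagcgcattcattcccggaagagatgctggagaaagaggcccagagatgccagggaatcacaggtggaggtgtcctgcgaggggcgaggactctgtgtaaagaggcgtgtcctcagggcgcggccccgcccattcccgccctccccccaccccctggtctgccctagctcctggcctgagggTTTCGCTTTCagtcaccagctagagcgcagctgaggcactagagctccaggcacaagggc
Vps13d promoter, chr4:145194956-145195255: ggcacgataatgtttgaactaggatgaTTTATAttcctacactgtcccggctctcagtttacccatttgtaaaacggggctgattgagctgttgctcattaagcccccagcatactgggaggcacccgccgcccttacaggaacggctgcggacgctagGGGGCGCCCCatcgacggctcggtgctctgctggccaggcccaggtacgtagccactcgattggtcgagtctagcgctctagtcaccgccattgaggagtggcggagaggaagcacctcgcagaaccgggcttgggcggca
The Tnfrsf1b window held 1 match, to the ISRE core, at bases 241 to 250 and on the opposite strand. Of 32851 mouse promoter windows of 300 bases, 3.44% held that core. The Vps13d window held a TATA box match at bases 28 to 33, as 13.62% of windows did, and an NF-kB consensus match at bases 160 to 169, as 8.46% did. A second Vps13d window in the table (145190617 to 145190916) held an AP-1 match and a TATA box match. PU.1 matches are found in 9.35% and AP-1 matches in 7.81% of windows. These are letter matches and no evidence of binding. Promoters of Tnfrsf8, Dhrs3 and Gm38074, which members also met as listed or at a distance, are not shown.

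NONMMUT117693.1 was by far the most abundant of the 8 features. It held 35645, 41795 and 42314 reads in LPS_PMMA 1, 2 and 3, and 4354, 2299 and 3819 in LPS_ES_PMMA 1, 2 and 3. Every LPS_PMMA library lay above every LPS_ES_PMMA library, and the reads made up 0.964% to 1.471% of all counted lncRNA reads of a LPS_PMMA library against 0.1244% to 0.2046% in LPS_ES_PMMA. Per transcript length the level went from 771.7 ± 121.9 FPKM (fragments per kb of transcript, scaled by the authors to library size; SD, n = 3) to 74.2 ± 3.26, and by mean FPKM over the 6 libraries it ranked 62 of the 24817 features. On counts per 1000000 reads of TMM-scaled library totals (CPM) it went from 16416 ± 1123 to 1170 ± 115 (n = 3), a fitted log2 fold change of -3.81 (SE 0.33), or 14.0-fold lower with enoxaparin. The spread between the libraries of either group was far smaller than that gap.

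The 4 features that follow along the chromosome held fewer reads and differed in the same direction. NONMMUT117695.1, which shares 2496 bases with NONMMUT117693.1, held 1812, 2006 and 1777 reads in LPS_PMMA and 258, 112 and 176 in LPS_ES_PMMA. Its level was 773.9 ± 125.3 CPM against 59.6 ± 2.97 (n = 3), a log2 fold change of -3.70 (SE 0.26). The 3 enoxaparin libraries were close to each other, between 56.7 and 62.7 CPM, and all lay below the lowest control at 641.6.

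NONMMUT117696.1 held 307, 241 and 252 reads in LPS_PMMA and 37, 25 and 30 in LPS_ES_PMMA (log2 fold change -3.41, SE 0.33). NONMMUT117697.1, which overlaps it by 1012 bases, held 294, 237 and 293 reads against 6, 20 and 10. This was the least even member, since LPS_ES_PMMA 2 held 10.1 CPM and LPS_ES_PMMA 1 only 1.46, and its log2 fold change of -4.59 had the largest standard error of the 8, at 0.66. Without LPS_ES_PMMA 2 its log2 fold change was -5.56. NONMMUT117699.1, over Gm38074 as listed, held 651, 741 and 769 reads against 118, 87 and 114. Its log2 fold change of -3.0 (SE 0.27) was the smallest in size of the 8, and its groups, at 296.4 ± 21.6 and 37.0 ± 7.8 CPM (n = 3), did not overlap either.

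NONMMUT117700.1 held 1423, 1683 and 2006 reads in LPS_PMMA and 351, 149 and 221 in LPS_ES_PMMA. In CPM the controls were even at 695.4 ± 31.2 and the enoxaparin libraries at 78.4 ± 5.95 (n = 3), a log2 fold change of -3.15 (SE 0.24). NONMMUT148313.1, the feature inside it, held only 12, 20 and 26 reads against 4, 1 and 2, for a log2 fold change of -3.28 (SE 0.45). It was the least abundant of the 8 by FPKM, at 1.63 ± 0.696 in LPS_PMMA and 0.202 ± 0.0913 in LPS_ES_PMMA (n = 3). Its counts are low enough that counting error is a large part of its spread.

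MSTRG.41311.1, listed furthest along the chromosome, had the lowest log2 fold change of the 8, within error of that of NONMMUT117697.1. It held 558, 835 and 847 reads in LPS_PMMA and 38, 14 and 44 in LPS_ES_PMMA, or 302.9 ± 27.3 CPM against 10.4 ± 3.99 (n = 3). Its log2 fold change was -4.85 (SE 0.36), 28.9-fold lower with enoxaparin. Without LPS_ES_PMMA 2 it was at -4.64 and NONMMUT117697.1, at -5.56, was lower. It is the spliced member, and the one that lay in another gene than the rest, Vps13d as listed or Tnfrsf8 at 272689 bp.

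**Figure D2:**
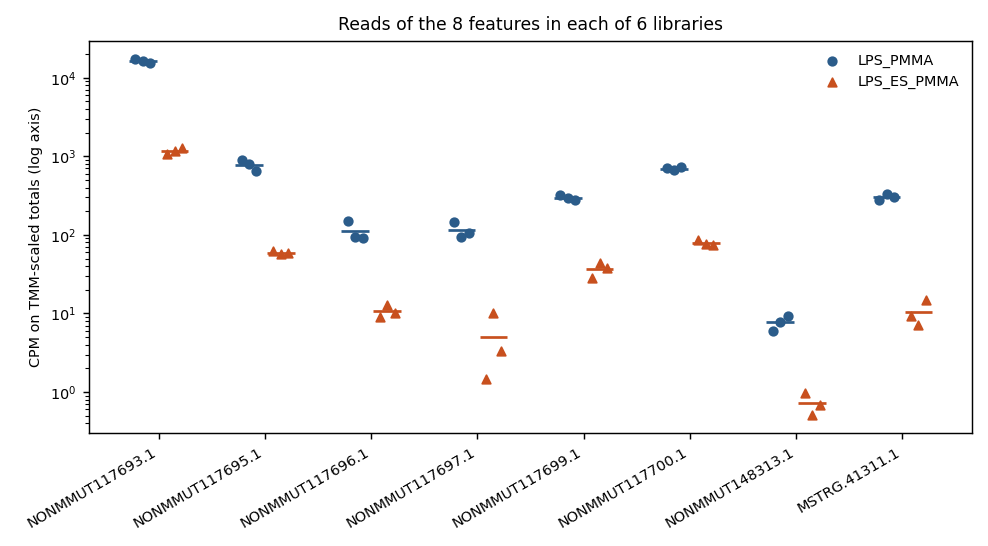
CPM on TMM-scaled totals (log axis) of the 8 features in each library; circles are LPS_PMMA, triangles LPS_ES_PMMA and short lines the group means. In each feature the 3 circles lie above the 3 triangles; the triangles of NONMMUT117697.1 spread most, from 1.46 to 10.1 CPM.

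All 8 features had enough reads to be fitted. In edgeR's quasi-likelihood test over all 8873 fitted features, in which the threshold was an adjusted p of 0.05, 8 of the 8 passed, while of all fitted features 4.76% passed in either direction and 2.58% passed with lower values in LPS_ES_PMMA. The members were chosen on this comparison, so that count is no support for their difference and nothing is read from it. Of the 422 features that passed, 193 were higher and 229 lower, a split that moved to 302 and 68 with unadjusted column totals and to 248 and 96 with library totals implied by FPKM. The CPM groups were apart, with LPS_ES_PMMA lower, in 8 of 8 features against 14.6% of all fitted features, and the raw counts were apart in 8 of 8 against 6.09%. The median log2 fold change of all fitted features was 0.03. Of all fitted features, 41 had a log2 fold change below that of the 8 features summed, the members NONMMUT117693.1, NONMMUT117697.1 and MSTRG.41311.1 among them. By the authors' deposited table the 8 log2 fold changes lay between -4.49 (MSTRG.41311.1) and -2.57 (NONMMUT117699.1), and the authors' deposited table calls each of them down and puts NONMMUT117693.1 at rank 1 of all features by p.

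**Figure D3:**
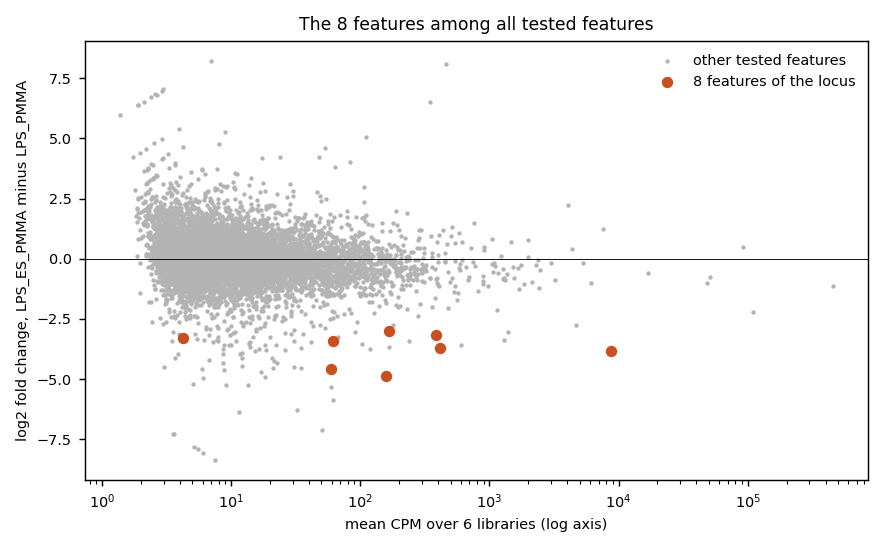
Fitted log2 fold change (LPS_ES_PMMA minus LPS_PMMA) against mean CPM over the 6 libraries (log axis) for all 8873 fitted features; the 8 features are the large points. They lie between -4.85 and -3.0, and NONMMUT117693.1 is the rightmost of them.

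Summed over the 8 features the locus held 40702, 47558 and 48284 reads in LPS_PMMA and 5166, 2707 and 4416 in LPS_ES_PMMA. The sum does not depend on how reads of overlapping features were divided among them, but a read counted for more than 1 feature would enter it more than once. It was 1.101% to 1.678% of the library in LPS_PMMA and 0.1438% to 0.2409% in LPS_ES_PMMA. In CPM it went from 18720 ± 1288 to 1371 ± 117 (n = 3), a log2 fold change of -3.77 (SE 0.34). Without NONMMUT117693.1 the other 7 features held 2155 to 2486 CPM in LPS_PMMA and 197.2 to 206.7 in LPS_ES_PMMA. These 7 were also chosen on this comparison, so the values only describe them.

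How large the difference was depended on the scaling of the libraries. The TMM factors ran from 0.5593 in LPS_PMMA 1 to 1.821 in LPS_ES_PMMA 2, and total counts from 1123551 in LPS_ES_PMMA 2 to 3697638 in LPS_PMMA 1. A single feature outside the locus, MSTRG.12264.1, averaged 455400 CPM, with a log2 fold change of -1.14. Column totals and shares of all counted reads include it and so depend on it. With column totals and no factors the summed locus had a log2 fold change of -2.95, and the 8 features lay between -4.17 and -2.14, while the median of all fitted features moved from 0.03 to 0.82. With library totals implied by the FPKM columns the sum was at -3.34 and the median of all fitted features at 0.46. The 8 features were below 0 under each of these scalings. Without any 1 library the sum lay between -3.87 and -3.71.

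**Figure D4:**
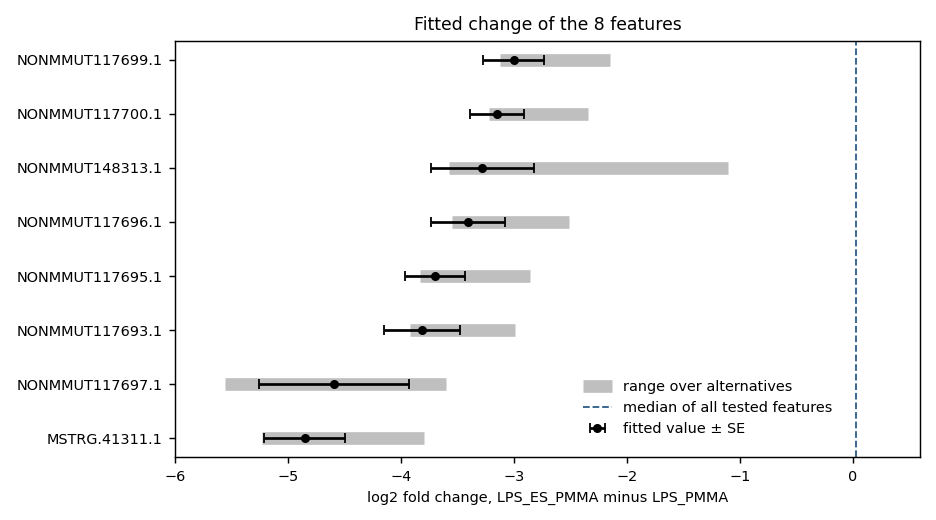
Fitted log2 fold change of each feature (point, with its standard error) and the range over the alternative scalings, tests, filters and left-out libraries (grey bar), with the median of all fitted features as a dashed line at 0.03. The widest range, -3.58 to -1.10, belongs to NONMMUT148313.1, whose upper end is the fit of log2(FPKM + 1); no range reaches 0.

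The members did not differ by equal amounts between the groups, which shows in how the reads of the locus were divided. NONMMUT117693.1 took 87.6% to 87.9% of them in LPS_PMMA and 84.3% to 86.5% in LPS_ES_PMMA. The share of MSTRG.41311.1 was 1.371% to 1.756% in LPS_PMMA and 0.517% to 0.996% in LPS_ES_PMMA. The shares of NONMMUT117699.1 and NONMMUT117700.1 lay the other way, at 1.558% to 1.599% and 3.496% to 4.155% in LPS_PMMA against 2.284% to 3.214% and 5.005% to 6.794% in LPS_ES_PMMA. For these 4 features the groups did not overlap. For NONMMUT117695.1, NONMMUT117696.1, NONMMUT117697.1 and NONMMUT148313.1 they did. A share is free of library scaling, but the counts are those that chose the members, so no test was made.

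**Figure D5:**
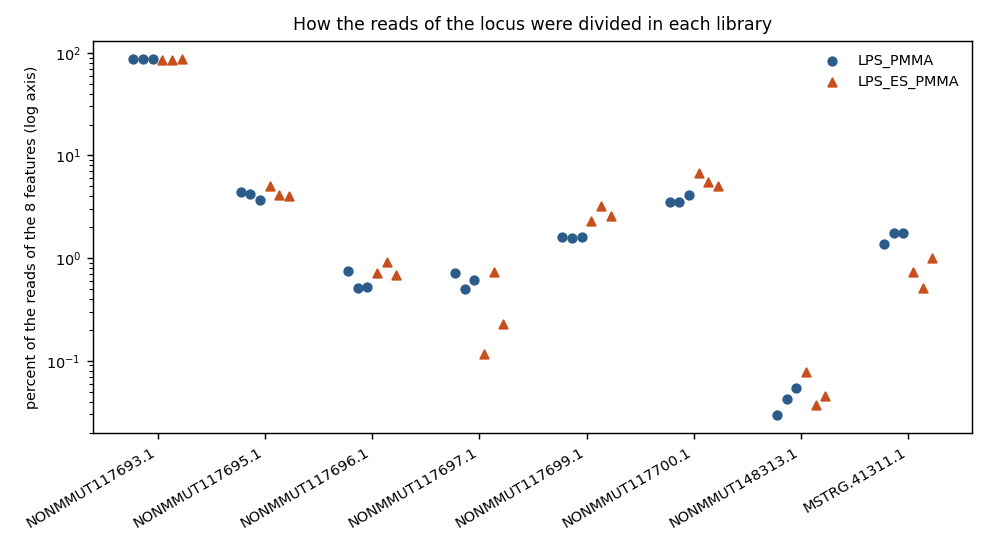
Percent of the reads of the 8 features that fell on each of them (log axis), for LPS_PMMA (circles) and LPS_ES_PMMA (triangles). MSTRG.41311.1 has lower shares in the 3 LPS_ES_PMMA libraries, and NONMMUT117699.1 and NONMMUT117700.1 have higher ones; NONMMUT117693.1 holds over 84% in each library.

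Reads per length followed the listed features unevenly. In LPS_PMMA, NONMMUT117693.1 averaged 3192 reads per kb, while NONMMUT117695.1 averaged 319.2, NONMMUT117700.1 295.5, NONMMUT117699.1 198.9, NONMMUT117697.1 156.7, MSTRG.41311.1 146.3 and NONMMUT117696.1 107. NONMMUT148313.1 averaged 6.67 although it lies inside NONMMUT117700.1. NONMMUT117693.1 had both the most reads per kb and the most exonic bases of Tnfrsf1b at 272689 bp. NONMMUT117700.1, with 0 such bases, had more reads per kb than NONMMUT117696.1, NONMMUT117697.1 and NONMMUT117699.1. The exonic bases are not scaled to feature length, and the source of the reads was not tested. No source used here says whether reads were counted by strand, so reads of the 2 strands cannot be told apart.

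Features beside the 8 did not show the same difference at a level the test could call. The members were picked with these counts known, which may have left such features out, so nothing is read from this contrast. The table lists 14 others within 100 kb, of which 3 had enough reads to be fitted, and 0 passed in edgeR (0 at an unadjusted p under 0.05, 0 in DESeq2 and 0 in limma). Without the filter on low counts all 14 were fitted in edgeR, and 0 passed, with 3 at an unadjusted p under 0.05. With 1 library left out, 0 passed in any fit, and 0 to 2 were at an unadjusted p under 0.05. NONMMUT117698.1 (144955293 to 144956139) lies between NONMMUT117697.1 and NONMMUT117699.1 and overlaps both. It held 21, 20 and 27 reads in LPS_PMMA and 40, 5 and 4 in LPS_ES_PMMA, so that LPS_ES_PMMA 1 held more reads than any control and the other two held fewer. In CPM it lay among the controls, at 9.71 against 7.87 to 10.3. Its log2 fold change was -0.95 (SE 0.64, edgeR adjusted p = 0.434), and -2.28 without LPS_ES_PMMA 1 (edgeR adjusted p = 0.111), with adjusted p between 0.111 and 0.871 over 16 alternatives. At 272689 bp it held 0 exonic bases of Tnfrsf1b.

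NONMMUT050472.2, antisense to Dhrs3 as listed, held 0, 15 and 16 reads in LPS_PMMA and 13, 5 and 6 in LPS_ES_PMMA (log2 fold change -0.62, SE 0.83, edgeR adjusted p = 0.717). Its direction turned in other fits, to 0.02 with column totals, 1.24 with limma on log2(FPKM + 0.1) and 0.30 with log2(FPKM + 1). NONMMUT117689.1, on the far side of Dhrs3, held 65, 87 and 86 reads against 135, 37 and 50 (log2 fold change -0.50, SE 0.31, edgeR adjusted p = 0.397), and turned to 0.30 with column totals. The groups of both features overlapped. NONMMUT115952.1, NONMMUT050474.2, NONMMUT050475.2 and NONMMUT050476.2, which overlap the stretch of NONMMUT117700.1, were too sparse to be fitted. NONMMUT050474.2 held 13, 8 and 7 reads against 3, 1 and 3, and NONMMUT115952.1 31, 0 and 45 against 6, 3 and 9. In the latter LPS_PMMA 2 held no read, while both other controls lay above the enoxaparin libraries. NONMMUT050475.2 held 0, 49 and 6 reads against 3, 0 and 0, and NONMMUT050476.2 7, 0 and 8 against 1, 1 and 3. That these neighbours did not pass does not show that they did not differ.

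Of 3836 other features with a mean of at least 10 CPM, 18 had a Pearson correlation above 0.99 with the summed locus over the 6 libraries, in log2(CPM + 1). With 2 groups of 3 libraries this mostly says that a feature was even within each group and lower with enoxaparin, and the values share libraries and scaling. The 5 closest were NONMMUT146115.1 (chromosome 19, 41269190 to 41271599; r = 0.998), NONMMUT056500.2, antisense in an intron of the thromboxane synthase gene Tbxas1 (r = 0.998), ENSMUST00000201944, in an intron of the intramembrane protease gene Sppl3 (r = 0.998), NONMMUT084040.1 (chromosome 11, 83077556 to 83079104; r = 0.997) and NONMMUT108925.1 (chromosome 2, 30782964 to 30783666; r = 0.996). Their positions and genes are given as listed and were not checked, so these reads may belong to other genes. The 5 features differed in size of change: NONMMUT146115.1 stood at -1.30 (SE 0.23) and ENSMUST00000201944 at -5.23 (SE 0.34) on the log2 scale. ENSMUST00000201944 held 51, 72 and 71 reads in LPS_PMMA and 3, 1 and 2 in LPS_ES_PMMA, and NONMMUT056500.2 held 706, 700 and 841 against 171, 95 and 146.

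Of the features tied to other genes of the TNF pathway, in 2 lists, 41 were fitted and 2 passed in edgeR, or 4.88% against 4.76% of all fitted features. These ties are as listed. On chromosome 4 some assembled transcripts met the annotation only at a distance from their listed position, and other chromosomes were not checked. Assembled transcripts in these lists may thus belong to other genes. Whether the listed positions of the NONCODE features in these lists hold was not tested either. Of those tied to TNF ligands and receptors, 10 were fitted and 0 passed in edgeR (2 at an unadjusted p under 0.05, 0 in DESeq2 and 0 in limma), with a median log2 fold change of -0.30 against 0.03 for all fitted features. MSTRG.9948.6, listed antisense to the neurotrophin receptor gene Ngfr, was the most abundant, with 266, 207 and 231 reads in LPS_PMMA and 465, 243 and 455 in LPS_ES_PMMA (log2 fold change 0.40, SE 0.28, edgeR adjusted p = 0.461). MSTRG.41158.3, in an intron of Tnfrsf8 as listed, held 36, 89 and 66 reads against 49, 23 and 37 (log2 fold change -1.09, SE 0.31, edgeR adjusted p = 0.0953). MSTRG.41555.3, listed antisense to Tnfrsf9, the gene of the costimulatory receptor 4-1BB, stood at -0.76 on the log2 scale (SE 0.31, edgeR adjusted p = 0.203), but at -84457 bp its ends were those of Errfi1. NONMMUT064554.2, antisense to the B cell survival factor gene Tnfsf13b, was at -0.30 (SE 0.24), and NONMMUT010436.2, near the ligand gene Tnfsf12, at 0.53 (SE 0.41); neither passed. No feature of the list was tied to Tnfrsf1b by the table or by its listed position.

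Of 31 fitted features tied to TNF receptor signalling and shedding genes, 2 fell, 0 rose and 29 did not pass in edgeR with TMM scaling, with a median log2 fold change of -0.09. NONMMUT105607.1, beside Nfkb2, the gene of the p100 precursor of non-canonical NF-kB, fell from 30, 41 and 41 reads to 12, 5 and 6 (log2 fold change -2.58, SE 0.32, edgeR adjusted p = 0.00954). MSTRG.10424.1, listed antisense to Map3k14, which encodes the kinase NIK that drives p100 processing, fell from 49, 51 and 54 reads to 33, 20 and 25 (log2 fold change -1.26, SE 0.26, edgeR adjusted p = 0.0374). With 1 library left out at a time MSTRG.10424.1 passed in 0 of 6 fits, with adjusted p between 0.0347 and 0.519 over 16 alternatives. NONMMUT105607.1 passed in 3 of 6, losing the call without LPS_ES_PMMA 1 (0.0527 from edgeR), LPS_ES_PMMA 3 (0.0556) or LPS_PMMA 2 (0.0534). Over the 16 alternatives NONMMUT105607.1 passed in 11. It also lost the call with column totals (log2 fold change -1.82, edgeR adjusted p = 0.0788) and with a replicate block (edgeR adjusted p = 0.0741). Among the most abundant of the list, MSTRG.20379.1, listed in an intron of the TAK1 partner gene Tab1, was at -1.49 (SE 0.35, edgeR adjusted p = 0.0554). It passed in DESeq2 and in robust edgeR. NONMMUT067955.2, listed in an intron of the ubiquitin ligase gene Birc3, was at -0.82 (SE 0.35, edgeR adjusted p = 0.226). NONMMUT096175.1, also listed in Tab1, was at -1.06 (SE 1.13), with 0 reads in LPS_ES_PMMA 3 against 199 and 98 in the other enoxaparin libraries. MSTRG.29657.1, listed near Nfkb2, was at -0.27 (SE 0.40) and MSTRG.19267.2, listed near the deubiquitinase gene Otulin, at 1.07 (SE 0.32, edgeR adjusted p = 0.108). MSTRG.19267.2 passed, with higher values in LPS_ES_PMMA, with column totals (1.92), with library totals implied by FPKM (1.57) and with limma on log2(FPKM + 1) (1.40).

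Among features tied to VPS13 proteins and their partners, 12 were fitted besides members of the locus, and 0 passed in edgeR with TMM scaling (1 at an unadjusted p under 0.05, 1 in DESeq2 and 0 in limma), with a median log2 fold change of 0.54. The feature called by DESeq2, and also by edgeR with RLE size factors and by robust edgeR, was NONMMUT028759.2, near the mitochondrial GTPase gene Rhot2, with 30, 73 and 44 reads in LPS_PMMA and 33, 12 and 13 in LPS_ES_PMMA (log2 fold change -1.67, SE 0.39, edgeR adjusted p = 0.054, and 0.0264 to 0.294 over 16 alternatives). NONMMUT034040.2 over an exon of Vps13a was at 0.93 (SE 0.50), NONMMUT023131.2 in an intron of Vps13b at 0.41 (SE 0.49), and NONMMUT015536.2 and NONMMUT015537.2 at the autophagy lipid transfer gene Atg2b at 0.51 (SE 0.36) and 0.66 (SE 0.65). None of these 4 passed. The ties of this list too are as listed and were not checked.

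The cell type could be checked only through lncRNA features that the table ties to marker genes. For macrophage markers, 4 features tied to 3 of 10 genes (Adgre1, Mertk and Ptprc) summed to 52.4 to 64.9 CPM in LPS_PMMA and 38.5 to 50.9 in LPS_ES_PMMA. For markers of other cell types, 7 features tied to 5 of 21 genes summed to 42.8 to 46.8 CPM in LPS_PMMA and 78.0 to 101.1 in LPS_ES_PMMA. Most of the latter came from NONMMUT096548.1, antisense to Krt8, and NONMMUT057375.2, beside Cd8a, which rose (log2 fold change 1.41, SE 0.31, edgeR adjusted p = 0.0442), while no feature tied to Cd3e, Pdgfra or Acp5 held more than 4 reads in a library. NONMMUT057375.2 passed in 0 of 6 fits with a library left out and in 5 of 16 alternatives in all, with adjusted p between 0.0275 and 0.172. On column totals with no factors, an alternative added after seeing the data, the macrophage sums were 33.3 to 50.8 CPM in LPS_PMMA and 49.2 to 67.6 in LPS_ES_PMMA, so that the groups overlapped and the direction turned. The sums for other cell types were then 23.5 to 44.5 and 97.7 to 137.1. The macrophage sum was mostly MSTRG.25685.1, an assembled transcript listed antisense to Adgre1 (log2 fold change -0.55, SE 0.25, and 0.23 with column totals). Whether its listed position holds was not checked, and neither were the listed positions of the other marker features. NONMMUT039756.2 over Mertk was at 1.22 (SE 0.45). The median of these 2 fitted features, 0.33, thus had the opposite sign to the TMM-scaled sum, and neither passed. The part of these markers in the difference at the locus was not tested. Marker genes themselves were not analysed here, and fewer cells of a type and less RNA per cell cannot be told apart in such libraries.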

How the data were processed

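Per the file headers, the authors deposited whole-number read counts and FPKM per lncRNA transcript for 6 libraries, their group mean FPKM, and a log2 fold change (the log2 ratio of those means), p-value and q-value, with edgeR in the name of the deposited table. No source used here gives the aligner, counter, strand setting or versions; per the submitters' processing notes the build is mm10. Groups and replicate numbers come from the titles. Counts were filtered with filterByExpr (minimum count 10, minimum total 15), scaled by TMM and compared with edgeR 4.0.16 (quasi-likelihood, R 4.3.3), with Benjamini-Hochberg adjustment over 8873 features and a threshold of 0.05; the edgeR prior count was 0.125. Standard errors are approximate, obtained from the fold change and the F statistic. The fits were checked on simulated counts. DESeq2 1.42.0, limma 3.58.1 on log2(FPKM + 0.1) or log2(FPKM + 1), other scalings and filters, a replicate block and left-out libraries were alternatives. Total counts were 1123551 to 3697638 per library. No replicate pair differed by as little as sampling noise (chi-square per degree of freedom 15.4 to 45.5). Listed genes were matched through the gene column or, except for cell type markers, a listed position within 10 kb; 2 list symbols, Etk and Miro1, are not in the annotation. Named features were the 8 members, fitted features within 100 kb, the 5 most correlated features, and in each list those called and the 5 with the highest mean FPKM. The members and lists were chosen with earlier results of these data known.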

Additional observations from a re-analysis of the deposited data

How the results depend on the processing

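The 8 features stayed below 0 in each of the 16 alternatives in which they could be fitted (NONMMUT148313.1 in 14). They were chosen on these values, so this describes the fits and supports nothing. The summed locus moved from a log2 fold change of -3.77 to -2.95 with column totals, -3.34 with library totals implied by FPKM, -3.29 with limma on log2(FPKM + 0.1) and -3.28 with log2(FPKM + 1); left-out libraries gave -3.87 to -3.71. Calls over all features went from 422 to 174 without a filter on low counts, 200 with a mean FPKM of at least 1 and 50 to 136 with 1 library left out. Called members ranged from 6 to 8 there, and those missing were NONMMUT117697.1 and NONMMUT148313.1. NONMMUT148313.1 was not fitted with a mean FPKM of at least 1 or without LPS_PMMA 2, and was otherwise fitted but not always called. Calls among the 3 TNF and VPS13 lists went from 2 to 1 with column totals, without the filter, with the FPKM filter and with limma on log2(FPKM + 0.1), to 4 in robust edgeR, and to between 0 and 1 with a library left out. With a replicate block, 41 features, 6 of the 8 members and 0 list features were called. Same-numbered libraries did not deviate together (correlations -0.02, -0.02 and -0.09), and differently numbered ones lay between -0.07 and 0.10. A shared effect smaller than the noise of these features would not show, so this check cannot exclude that the numbers pair the libraries. The commonest distance near the locus was shared by 1 assembled transcript, by 2 when ends within 20 bp counted, and by 6 when the whole chromosome and transcripts of all types were used together, which was added after seeing the data; transcripts of all types alone gave 1. Other causes of these differences were not tested. Counts in single digits limit NONMMUT148313.1 and NONMMUT117697.1.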
